A study of Mus musculus with 24 samples.

Results

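Open chromatin of common myeloid progenitors (CMPs) was compared with that of granulocyte-monocyte progenitors (GMPs), their descendants on the way to neutrophils and monocytes, in mice with intact Daxx (Daxx-WT). Members were the libraries titled Daxx +/+ CMP (2 libraries) and Daxx +/+ GMP (2 libraries), 4 of the 24 libraries of the series. The assay was ATAC-seq, which reads accessibility from where a transposase can cut and tag DNA not covered by nucleosomes. The question addressed was which regions, above all those far from promoters, open and close as progenitors differentiate.

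Both groups came from bone marrow of C57BL/6 mice with the genotype Daxx +/+ Cre +/-. The Cre was RosaCreERT2, which is expressed from the ubiquitously active Rosa26 locus and needs tamoxifen to act. Cells were taken 3 weeks after tamoxifen. CMPs and GMPs therefore shared the Cre allele and the drug, and no floxed Daxx allele was present in either. CMPs were sorted as lineage-negative CD34+ cells that carried c-Kit and CD45.2 and lacked Sca-1 and CD16/32. The labels give no age for these mice (the study's methods give only a usual range of ages at treatment), and do not say which libraries came from the same mouse.

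The authors deposited 1 list of peaks (regions called open) per group, with positions alone. The CMP list held 66070 peaks covering 48.5 Mb and the GMP list 65306 peaks covering 45.4 Mb. No list gives a height, a read number or a value per library, so depth is unknown, the spread between libraries cannot be computed, and no difference below carries a test. A peak was called shared if it overlapped a peak of the other list by at least 1 bp, and otherwise CMP-only or GMP-only. In bulk cells, fewer cells with a region open cannot be told apart from weaker opening in each cell, and absence from a list can also be a signal just under the threshold of the caller.

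GMPs arise from CMPs as the alternative fates of the CMP, the erythroid and the megakaryocytic lineage, are left behind. C/EBPα and Pu.1 (encoded by Spi1) are the transcription factors that drive entry into the granulocyte and monocyte programmes, whereas Gata1 and Gata2 bind GATA motifs in stem, erythroid, megakaryocytic and mast cells. Granulocyte progenitors first make the proteases and peroxidase of the primary granules, and later the contents of secondary granules and the S100 proteins.

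Examples of the regions behind the comparison are given here as 200 bp around the peak centre, from the RefSeq GRCm38 (mm10) sequence, plus strand, 5′ to 3′. None of these stretches overlaps an annotated exon. They were picked for their motif: of each gene shown, the peak of the class with the most matches was taken. Among all distal peaks, 21.7% of GMP-only ones held the C/EBP motif and 15.2% of CMP-only ones the GATA motif. In the first 4, from GMP-only peaks near granulocyte genes, capitals mark the match to the C/EBP motif TTGCNNAA. The Fcnb stretch lies just upstream of the start site of the gene, those of S100a9 and Gstm1 lie further upstream, and that of Srgn lies downstream of a start site.
Fcnb, chr2:28084891-28085090: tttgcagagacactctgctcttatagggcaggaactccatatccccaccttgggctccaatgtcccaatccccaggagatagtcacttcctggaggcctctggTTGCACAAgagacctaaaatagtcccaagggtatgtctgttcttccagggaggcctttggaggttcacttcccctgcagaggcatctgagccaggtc
S100a9, chr3:90702520-90702719: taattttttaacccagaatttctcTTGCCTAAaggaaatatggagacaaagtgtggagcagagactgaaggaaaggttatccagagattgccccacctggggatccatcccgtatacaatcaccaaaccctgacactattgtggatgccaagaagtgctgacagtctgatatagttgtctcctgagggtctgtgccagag
Gstm1, chr3:108022783-108022982: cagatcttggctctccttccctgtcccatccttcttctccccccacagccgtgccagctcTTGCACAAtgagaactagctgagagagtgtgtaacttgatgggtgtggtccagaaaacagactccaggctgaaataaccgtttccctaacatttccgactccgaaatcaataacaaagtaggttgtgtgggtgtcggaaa
Srgn, chr10:62503993-62504192: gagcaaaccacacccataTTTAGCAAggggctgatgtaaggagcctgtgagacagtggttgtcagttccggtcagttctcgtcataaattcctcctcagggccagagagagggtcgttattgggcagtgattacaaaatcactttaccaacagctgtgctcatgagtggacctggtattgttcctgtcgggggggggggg
The next 4 come from CMP-only peaks near erythroid and megakaryocyte genes, and capitals mark the GATA motif AGATAA. The stretches of Gata1, Car2 and Tspan33 lie upstream of a start site, and that of Slamf1 lies downstream of it.
Gata1, chrX:7971379-7971578: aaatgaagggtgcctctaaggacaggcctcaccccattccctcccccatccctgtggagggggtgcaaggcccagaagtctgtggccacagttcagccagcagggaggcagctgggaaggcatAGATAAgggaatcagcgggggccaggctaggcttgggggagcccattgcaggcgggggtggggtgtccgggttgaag
Car2, chr3:14879008-14879207: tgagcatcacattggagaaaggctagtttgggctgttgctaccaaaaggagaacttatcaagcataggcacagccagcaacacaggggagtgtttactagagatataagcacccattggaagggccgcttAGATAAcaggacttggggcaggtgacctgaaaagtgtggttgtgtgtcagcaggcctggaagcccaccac
Tspan33, chr6:29701176-29701375: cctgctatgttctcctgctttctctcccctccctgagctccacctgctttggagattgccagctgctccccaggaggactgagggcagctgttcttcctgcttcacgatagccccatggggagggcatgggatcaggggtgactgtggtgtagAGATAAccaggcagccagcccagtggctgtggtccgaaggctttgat
Slamf1, chr1:171773243-171773442: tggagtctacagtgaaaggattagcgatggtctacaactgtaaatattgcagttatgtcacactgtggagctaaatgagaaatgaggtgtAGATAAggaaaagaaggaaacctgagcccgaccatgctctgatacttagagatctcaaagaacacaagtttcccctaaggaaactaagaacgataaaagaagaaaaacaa

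Most peaks were common to both progenitors. Of the CMP peaks 13213 (20%) had no counterpart in GMPs, and of the GMP peaks 12200 (18.7%) had none in CMPs. Changes were more frequent away from promoters. Among distal peaks, those more than 1000 bp from every annotated transcription start site, 11083 of 46017 (24.1%) were CMP-only and 10562 of 45659 (23.1%) GMP-only. Among promoter peaks the shares were 2130 of 20053 (10.6%) and 1638 of 19647 (8.34%).

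**Figure D1:**
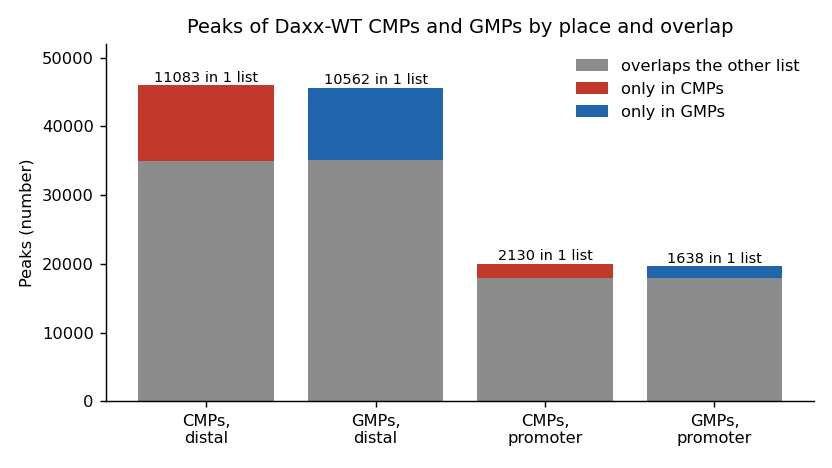
Number of peaks (vertical axis) of CMPs and GMPs, split into distal and promoter peaks. Grey parts overlap the other list and coloured parts do not: 11083 distal peaks were CMP-only and 10562 GMP-only, against 2130 and 1638 promoter peaks.

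Peaks in 1 list only were narrower than shared ones. At distal sites the median width was 483 bp for CMP-only and 603 bp for shared CMP peaks, and 431 bp for GMP-only and 568 bp for shared GMP peaks. At promoters it was 630 against 1007 bp in CMPs and 462 against 958 bp in GMPs. When peaks below the 25th percentile of width were left out of both lists, GMP-only peaks numbered 7858 and distal ones 6733, a shift of over 1.5 times, whereas CMP-only peaks numbered 12120. GMP-only distal peaks lay nearer to genes, with a median distance to the nearest start site of 16.4 kb against 21.1 kb for CMP-only and 16.0 kb for shared peaks, and 45.7%, 49.5% and 48.8% of them lay outside coding genes.

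CMP-only regions were mostly regions already open in stem cells, and GMP-only regions mostly were not. Of the distal CMP-only peaks 6581 (59.4%) overlapped a peak of Daxx-WT long-term haematopoietic stem cells (LT-HSCs), compared with 1932 (18.3%) of the GMP-only and 67.7% of the shared peaks. At promoters the shares were 73.7%, 35.0% and 91.7%. The LT-HSC list covered 62.9 Mb, more than either progenitor list. LT-HSCs had been enriched for c-Kit before sorting, and CMP and GMP libraries alone were sequenced in a further single-read run, a difference whose part in these shares was not tested.

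Lists of the same progenitors from Daxx-KO mice (Daxx F/F with the same Cre) were not used to define the classes. Among distal CMP-only peaks 4365 (39.4%) were found in Daxx-KO CMPs and 1202 (10.8%) in Daxx-KO GMPs. Among distal GMP-only peaks 8.82% were found in Daxx-KO CMPs and 31.3% in Daxx-KO GMPs. Of the peaks present in exactly 1 of the 2 Daxx-KO lists, 3615 of 4067 (88.9%) of the CMP-only ones were in the CMP list, and 2861 of 3346 (85.5%) of the GMP-only ones in the GMP list. Shared peaks in exactly 1 Daxx-KO list were split 43.3% to 56.7%. Among the CMP-only peaks, 56.5% were in neither Daxx-KO list, both of which were shorter, with 50590 and 49677 peaks.

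**Figure D2:**
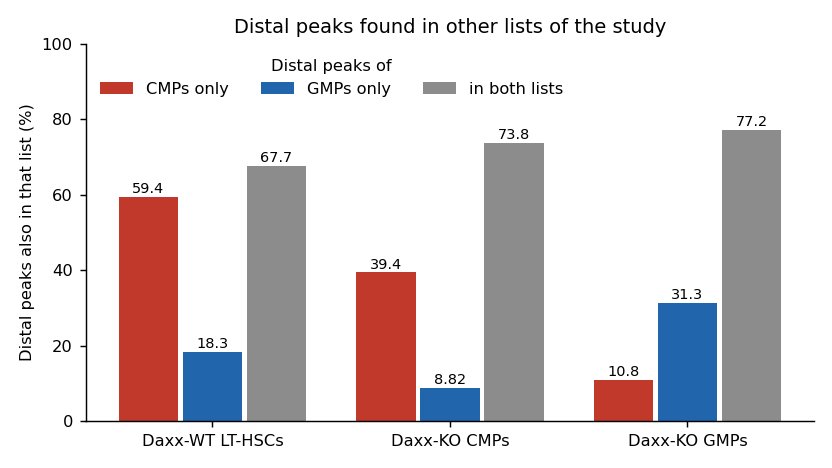
Share of distal CMP-only, GMP-only and shared peaks (vertical axis, %) that overlapped a peak of Daxx-WT LT-HSCs, Daxx-KO CMPs or Daxx-KO GMPs. CMP-only peaks were found in LT-HSCs in 59.4% and GMP-only peaks in 18.3% of cases, and each class was found more often in the Daxx-KO list of its own population (39.4% against 10.8%, and 31.3% against 8.82%).

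To describe genes, each peak was given to the coding gene with the nearest start site within 100 kb, and the net of a gene is its number of GMP-only minus its number of CMP-only peaks. Of 16622 coding genes with a peak, 4120 (24.8%) had a net above 0, 4470 (26.9%) a net below 0 and 8032 a net of 0, with a median of 0. A start site counted as open if a peak lay within 1000 bp. It was open in both populations for 13506 of 21911 coding genes, in GMPs only for 273 (1.25%) and in CMPs only for 740 (3.38%). Of the 740 genes open at the start site in CMPs only, 647 (87.4%) were open there in LT-HSCs, compared with 140 (51.3%) of the 273 genes open in GMPs only.

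Genes of the primary granules and early granulocytes gained peaks. Of the 20 genes, 10 had a net above 0, 3 below 0 and 7 of 0. Among all coding genes with a peak, 24.8% had a net above 0 and 26.9% below 0. Of their GMP peaks 30.5% were GMP-only, against 18.7% of all GMP peaks, and of their CMP peaks 12% were CMP-only, against 20% of all. Elane, which encodes neutrophil elastase, had a peak at its start site in GMPs (chr10:79886081-79886441) and none there in CMPs or LT-HSCs. The same start site had a peak in Daxx-KO GMPs and none in Daxx-KO CMPs. In the 200 bp at its centre the Elane peak held a match to the Pu.1 motif GAGGAAGT. Fcnb, which encodes ficolin-B, gained its start-site peak (chr2:28084592-28085390) with the C/EBP match printed above, but Daxx-KO CMPs had a peak there too.

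The other 18 genes of the list were open at the start site in both populations, and several of them differed around it. Plac8 had 5 GMP-only, 8 shared and 0 CMP-only peaks, and Ly6c2, which encodes the Ly6C antigen of monocytes and immature granulocytes, had 4 GMP-only and 3 shared peaks. Gstm1, Srgn (serglycin, the proteoglycan of granules), Lyz2 (lysozyme) and Serpinb1a (an inhibitor of neutrophil proteases) each had 2 GMP-only and 0 CMP-only peaks. Mpo, which encodes myeloperoxidase, had 1 GMP-only and 4 shared peaks. Prtn3 (proteinase 3), Ms4a3 and Cst7 had a net of -1. Of the 29 GMP-only peaks of this list, 1 was found in LT-HSCs, 1 in Daxx-KO CMPs and 10 in Daxx-KO GMPs. Over all GMP-only peaks these shares were 18.3%, 8.82% and 31.3% at distal sites and 35.0%, 14.0% and 34.2% at promoters.

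Genes expressed late in neutrophil maturation were already gaining peaks in GMPs. Of 24 genes 13 had a net above 0 and 4 below 0, where 24.8% and 26.9% of all genes with a peak did. Of their GMP peaks 26.1% were GMP-only, against 18.7% of all, and of their CMP peaks 9.59% were CMP-only, against 20% of all. Against 1.25% of all coding genes, the start sites of 4 genes of the list were open in GMPs only. These were S100a9 (a subunit of calprotectin), Ngp (neutrophilic granule protein), Lcn2 (lipocalin 2) and Padi4 (the enzyme that citrullinates histones in neutrophils). All 4 start sites had a peak in Daxx-KO GMPs and none in Daxx-KO CMPs, and Padi4 alone of the 4 was open in LT-HSCs. Of all 273 genes open at the start site in GMPs only, 60 had a peak there in Daxx-KO GMPs and not Daxx-KO CMPs. For 34 it was the reverse, 149 were in neither Daxx-KO list, and 140 (51.3%) were open in LT-HSCs. The peaks of Ngp (chr9:110419355-110420015) and Lcn2 (chr2:32387578-32388427) were the only peaks of these genes in either list, and each held 1 C/EBP match. S100a9 had 3 GMP-only peaks, at 0.13, 6.90 and 13 kb upstream of the start site, and the outer 2 held a C/EBP match. Start sites of 9 genes of the list, among them Ly6g, Chil3 and Cxcr2, were open in neither population. Olfm4, which marks a subset of neutrophils, had its only peak in CMPs, at the start site, which was also open in LT-HSCs, and Mmp9, Itgam and Cxcr2 had 1 CMP-only and 0 GMP-only peaks.

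Monocyte genes changed less. Of 25 genes 10 had a net above 0, 2 below 0 and 13 of 0. Over all genes with a peak the shares were 24.8% above 0 and 26.9% below 0. All 25 genes were open at the start site in both populations. GMP-only peaks made up 17.4% of their GMP peaks, near the 18.7% of all peaks, whereas CMP-only peaks made up 10.1% of their CMP peaks against 20% of all. F13a1, which encodes a subunit of coagulation factor XIII made by monocytes, had 5 GMP-only and 2 CMP-only peaks. Cybb, the catalytic subunit of the phagocyte oxidase, had 3 GMP-only and 0 CMP-only peaks, and 2 of them held a Pu.1 match. Of the 29 GMP-only peaks of the list 2 were found in LT-HSCs and 12 in Daxx-KO GMPs. Over all distal GMP-only peaks the shares were 18.3% and 31.3%.

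Receptors for myeloid cytokines and their signalling genes had 28 GMP-only and 13 CMP-only peaks, with a net above 0 for 10 of 15 genes and below 0 for 3. The shares over all genes with a peak were 24.8% and 26.9%. Ifngr1, a chain of the interferon-γ receptor, had 7 GMP-only and 1 CMP-only peaks, a net of 6. Jak2, the kinase used by many of these receptors, had a net of 3, and Il1r1 a net of 2. Csf3r, the receptor of the granulocyte factor G-CSF, and Csf1r, the receptor of the macrophage factor M-CSF, each had a net of 1. GMP-only peaks were 68.3% of the peaks in 1 list at these genes, where they were 48.0% over all genes and regions. Without peaks below the 25th percentile of width the shares were 42.3% at these genes and 39.3% overall.

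Transcription factors of the granulocyte and monocyte fate did not share a direction. All 18 start sites were open in both populations. A net above 0 was found for 8 genes and below 0 for 6, where 24.8% and 26.9% of all genes with a peak had these. The shares of peaks in 1 list (18.3% of CMP and 22.3% of GMP peaks) were near those of all peaks. Cebpd and Egr2 had 4 GMP-only and 0 CMP-only peaks each. Myb had a net of 3. Cebpa, which encodes C/EBPα, had 3 GMP-only and 1 CMP-only peaks, Gfi1, a repressor needed for neutrophils, had 3 and 1, and Spi1 had 2 and 1 beside 6 shared peaks. Irf8, a factor of monocytes and dendritic cells, had a net of -2.

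Genes for the red cell itself lost peaks. Of 36 erythroid effector genes 30 had a peak, and of these 17 had a net below 0 and 2 above 0, where 26.9% and 24.8% of all genes with a peak did. Of their CMP peaks 33.7% were CMP-only, and of their GMP peaks 12.7% were GMP-only. Against 3.38% of all coding genes, the start sites of 4 genes of the list were open in CMPs only. Among them were Car1 (carbonic anhydrase 1), Aqp1 (the water channel aquaporin 1) and Trim10. Aqp1 had 3 CMP-only and 0 GMP-only peaks, Car2 (carbonic anhydrase 2) had 3 and 1, and Tspan33 had 2 and 0. Hbb-bt, an adult β-globin gene, had 2 CMP-only peaks at 1.55 and 4.82 kb downstream of its start site and no other peak, and both were found in LT-HSCs. Hba-a1, Hba-a2 and Slc4a1 (the anion exchanger band 3) had no peak in either list. Tfrc, the transferrin receptor, and Uros, an enzyme of haem synthesis, had a net of 1. Of the 31 CMP-only peaks of this list 21 were found in LT-HSCs, 11 in Daxx-KO CMPs and 3 in Daxx-KO GMPs. Over all CMP-only peaks these shares were 59.4%, 39.4% and 10.8% at distal sites and 73.7%, 40.5% and 15.0% at promoters.

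Erythroid transcription factors were balanced, with 5 of 17 genes above 0, 5 below 0 and 7 at 0, and 31 CMP-only against 29 GMP-only peaks. All genes with a peak were likewise near balance, with 24.8% above 0 and 26.9% below 0. The shares of peaks in 1 list at these factors were 22.6% in CMPs and 21.2% in GMPs, near the 20% and 18.7% of all peaks. Gata1 had a shared peak at one of its start sites and 1 CMP-only peak (chrX:7971122-7971836), in an intron and 3.57 kb upstream of the nearest start site, which held the GATA match printed above and was found in LT-HSCs and Daxx-KO CMPs but not in Daxx-KO GMPs. Zfpm1, which encodes the Gata1 partner Fog1, had 6 CMP-only and 2 GMP-only peaks, and Nfia 4 and 1. Cited2 (4 GMP-only, 1 CMP-only) and Lmo2 (6 and 4) went the other way. Klf1, Tal1 and Lyl1 had shared peaks alone.

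Megakaryocyte genes had more CMP-only than GMP-only peaks, 47 against 34. Of 29 genes with a peak 14 had a net below 0 and 8 above 0, where 26.9% and 24.8% of all genes with a peak did. Of their CMP peaks 30.3% were CMP-only, and of their GMP peaks 23.8% were GMP-only. Both shares were above those of all peaks. The start sites of Gp1ba (a chain of the platelet receptor for von Willebrand factor), Treml1, Cavin2 and Slamf1 (the LT-HSC marker CD150) were open in CMPs only, and all 4 were also open in LT-HSCs. Those of Gp1ba, Treml1 and Slamf1 were open in Daxx-KO CMPs and not in Daxx-KO GMPs. Among all coding genes, 740 (3.38%) were open at the start site in CMPs only, and 87.4% of these were open in LT-HSCs. Of the 740, 229 were open in Daxx-KO CMPs and not Daxx-KO GMPs, and 47 the other way round. Rab27b, which acts in the release of platelet granules, had the lowest net of the list, with 7 CMP-only, 0 GMP-only and 1 shared peaks, and Mylk, a myosin kinase, had 6 and 2. Fli1, Cd9 and Gata2 had the highest net of the list, 4, 3 and 3. Gata2 also acts in stem and mast cells, and Fli1 in stem cells. Clec1b, a platelet receptor, was the 1 gene with a start site open in GMPs only, through a peak 0.93 kb from the start that was found in neither Daxx-KO list. Itga2b (integrin αIIb) had 4 shared peaks and no other.

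**Figure D3:**
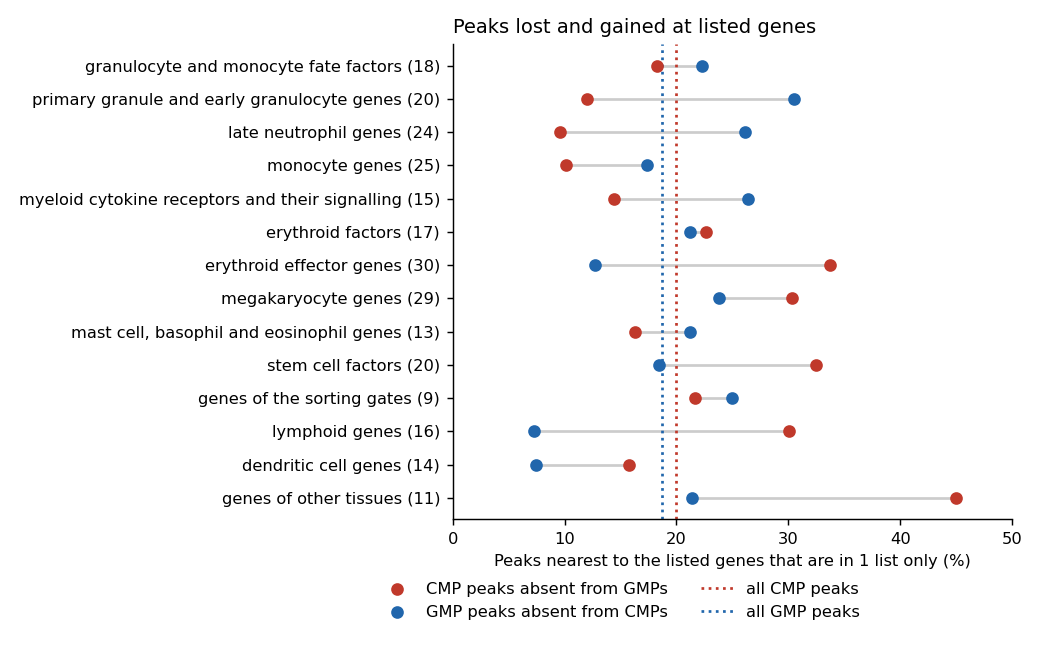
For each gene list (number of its genes with a peak in brackets), the share of nearby CMP peaks that were CMP-only (red) and of nearby GMP peaks that were GMP-only (blue), in %, with dotted lines at the shares of all peaks (20% and 18.7%). Granulocyte lists lie to the right in blue, up to 30.5%, and erythroid effector, megakaryocyte, stem cell and lymphoid genes to the right in red, between 30.1% and 33.7%, while the highest red share, 45%, is that of genes of other tissues.

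Stem cell factors and lymphoid genes lost peaks too. Over all genes with a peak, 26.9% had a net below 0 and 24.8% above 0. Of 20 stem cell genes with a peak 10 had a net below 0 and 2 above 0. Of their CMP peaks 32.5% were CMP-only, against 20% of all. Prdm16 had 9 CMP-only and 3 GMP-only peaks, Mecom (Evi1) 6 and 2, Nkx2-3 4 and 0, and Meis1 3 and 0. Tek, the angiopoietin receptor Tie2, and Nkx2-3 lost the start-site peak. The 2 genes above 0 were Erg, with 6 GMP-only and 3 CMP-only peaks, and Hoxb4, with 1 and 0. Of the 38 CMP-only peaks of the list 33 were found in LT-HSCs, against 59.4% of all distal and 73.7% of all promoter CMP-only peaks. Of 16 lymphoid genes with a peak 13 had a net below 0 and 1 above 0, and 22 peaks were CMP-only against 4 GMP-only. Gata3, a T cell factor, had 3 CMP-only and 0 GMP-only peaks, and the start sites of Klrb1c and Bcl11b were among those open in CMPs only.

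Further lists served as a check of what the sorted cells held. Of the genes behind the sorting gates, Fcgr2b and Fcgr3, which encode the CD16/32 antigens that part CMPs from GMPs, had equal numbers of CMP-only and GMP-only peaks (1 and 1, and 2 and 2), Cd34 had 2 GMP-only peaks and Kit 5 GMP-only and 4 CMP-only. Among 13 genes of mast cells, basophils and eosinophils with a peak, 5 had a net above 0 and 3 below 0. Mcpt8, a basophil protease, had no CMP peak and 2 GMP-only peaks, 1 of them at its start site and found in Daxx-KO GMPs, and Gzmb had its start site open in CMPs only. Of 14 dendritic cell genes 4 had a net above 0 and 5 below 0, and Ccr9 had the lowest (-3). For both of these lists, the shares over all genes with a peak were 24.8% above 0 and 26.9% below 0. Of the B and T cell genes, Cd79a, Cd3g, Cd8a, Rag1 and Rag2 had no peak in either list.

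Genes of unrelated tissues also lost peaks. Of 15 such genes 11 had a peak, of which 5 had a net below 0 and 1 above 0. Of all genes with a peak, 26.9% and 24.8% did. Of their 20 CMP peaks 9 were CMP-only (45%), against 20% of all CMP peaks. Of their 14 GMP peaks 3 were GMP-only (21.4%), near the 18.7% of all GMP peaks. The start sites of Sox2 and Myod1, factors of neural and of muscle cells, were open in CMPs only, as were 3.38% of all. Foxa2 had 2 CMP-only peaks. The share of CMP-only peaks at these few genes was thus higher than at erythroid effector (33.7%), stem cell (32.5%) and lymphoid genes (30.1%). The primary granule, late neutrophil, monocyte and receptor lists had shares between 9.59% and 14.4% and the fate factors 18.3%.

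Among all coding genes, Ankrd44 and Cdk6 had the highest net (10), Ankrd44 with 11 GMP-only and 1 CMP-only peaks and Cdk6, the cyclin-dependent kinase of G1, with 14 and 4. Nedd9, a scaffold protein of cell adhesion signalling, had 9 GMP-only and 0 CMP-only peaks, and Igf1r, the receptor of insulin-like growth factor 1, had 14 and 5. Dgkg, Gpr141, Pfkfb3 (a regulator of glycolysis), Snx18, Stim2 (a calcium sensor of the endoplasmic reticulum) and Zfp36l2 (an RNA-binding protein) had a net of 8, as 9 genes did in all, of which 6 were taken by the ratio of the net to the number of peaks in 1 list, and then by name. The start sites of all 10 genes named were open in both populations. These genes have many peaks, and 485 genes had a net of at least 3.

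At the other end Myo6, which encodes the motor protein myosin VI, had 11 CMP-only, 0 GMP-only and 1 shared peaks. The shared peak lay at a start site. Dnm3, a dynamin, had 11 CMP-only and 2 GMP-only peaks, and Dst, Kalrn, Kazn, Plekha7 and Itga9 a net of -8. Arhgap6 and Cntnap2 were 2 of the 11 genes with a net of -7, taken in the same way, and the start site of Cntnap2 was open in CMPs alone. A net of -3 or lower was found for 523 genes.

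In windows of 100 kb, the highest net was 7, in 5 windows with 7 GMP-only and 0 CMP-only peaks each. The window chr3:116100001-116200000 held Vcam1, the adhesion molecule of vascular and stromal cells that some blood progenitors carry, with 9 GMP peaks of which 7 were GMP-only, 1 of these being found in LT-HSCs and 3 in Daxx-KO GMPs. The window chr2:11500001-11600000 at Pfkfb3 had 7 GMP-only peaks, of which 0 were in LT-HSCs and 5 in Daxx-KO GMPs. The window chr17:84100001-84200000 at Zfp36l2 and the window chr11:95300001-95400000 at Fam117a, Kat7 and Slc35b1 were the others with a coding gene. The window chr2:160200001-160300000 overlapped no coding gene, and none of its 7 GMP-only peaks was in LT-HSCs or Daxx-KO CMPs, while 2 were in Daxx-KO GMPs. The lowest net (-7) was that of the window chr9:80300001-80400000 at the end of Myo6. A net of -6 was found in 7 windows. All 6 CMP-only peaks of 1 of them, chr3:79900001-80000000 at Fam198b, were found in LT-HSCs, 5 of them in Daxx-KO CMPs and 0 in Daxx-KO GMPs.

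Short motifs were counted in the 200 bp at the centre of each distal peak, on both strands, as exact matches. The C/EBP motif TTGCNNAA was found in 2293 of 10562 (21.7%) GMP-only, 875 of 11083 (7.89%) CMP-only and 12.1% of shared peaks, and in 13.1% of all 56579 distinct distal regions. The GATA motif AGATAA had the reverse pattern, with 1682 (15.2%) of CMP-only, 840 (7.95%) of GMP-only, 8.43% of shared and 9.66% of all regions. A match is a description of the letters and does not show that a factor was bound.

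**Figure D4:**
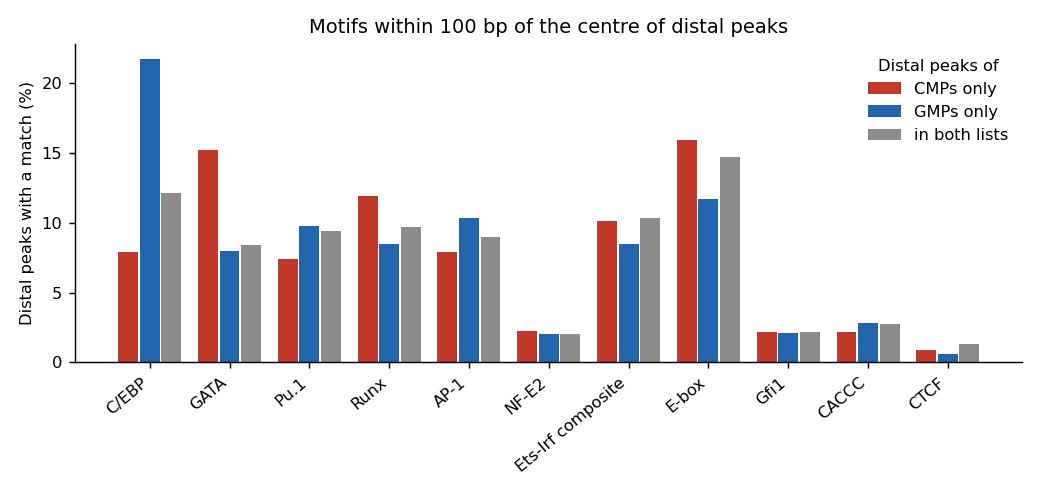
Share of distal CMP-only, GMP-only and shared peaks (vertical axis, %) with at least 1 match to each motif within 100 bp of the peak centre. The C/EBP motif was found in 21.7% of GMP-only and 7.89% of CMP-only peaks, and the GATA motif in 7.95% and 15.2%.

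Differences for other motifs were smaller. The Pu.1 motif GAGGAAGT was found in 9.73% of GMP-only, 7.42% of CMP-only and 9.37% of shared peaks. The Runx motif TGTGGTT (8.47%, 11.9% and 9.70%) and the E-box CAGCTG (11.7%, 15.9% and 14.7%) were more frequent in CMP-only peaks, and the AP-1 motif TGANTCA (10.3%, 7.89% and 8.97%) in GMP-only peaks. The NF-E2 motif GCTGANTCA, which contains the AP-1 motif, was found in 2.05%, 2.26% and 2.00%. The composite of Ets and Irf sites GAANNGAAA was found in 8.46%, 10.1% and 10.3%, the Gfi1 motif AAATCANNG in 2.10%, 2.19% and 2.16%, and the CACCC box CCACACCC in 2.83%, 2.19% and 2.74%. The CTCF motif AGGGGGCGC was rare in all classes (0.625%, 0.920% and 1.30%). Over all distinct distal regions the shares were 9.05% for Pu.1, 9.91% for Runx, 14.3% for the E-box, 9% for AP-1, 2.06% for NF-E2, 9.90% for the Ets and Irf composite, 2.16% for Gfi1, 2.65% for CACCC and 1.10% for CTCF.

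Base composition differed little between the classes, with a mean GC content of 49.0% in CMP-only, 47.7% in GMP-only and 49.8% in shared distal peaks, and the order of the C/EBP and GATA shares held at each level of it. Below 45% GC the C/EBP motif was in 28.2% of GMP-only and 10.6% of CMP-only peaks, from 45% to 55% in 20.2% and 7.72%, and from 55% in 11.6% and 4.59%. The GATA motif was in 12.5% and 19.6%, 6.71% and 15.1%, and 2.01% and 9%. At promoters C/EBP was in 15.9% of GMP-only, 6.06% of CMP-only and 6.00% of shared peaks, and GATA in 7.02%, 9.95% and 3.69%. Mean GC content there was 51.6%, 56.4% and 61.6%, further apart than at distal peaks, and promoter peaks were not split by it.

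C/EBP matches in GMP-only peaks were gathered at the centre, and those in CMP-only peaks were not. Per 1000 GMP-only peaks and 25 bp bin, there were 38.3 matches in the bin just left of the centre and 10.6 and 11.1 in the outermost bins, which lay 237.5 bp to either side. In CMP-only peaks there were 12 beside the centre and 10.3 and 10.1 in the outermost bins. GATA matches in CMP-only peaks went from 12.1 and 14.8 in the outermost bins to 21.2 beside the centre, whereas in GMP-only peaks they went from 13.5 and 15.8 to 9.85. Pu.1 matches were centred in every class, with 13.9 per 1000 CMP-only, 17.7 per 1000 GMP-only and 16.6 per 1000 shared peaks in the same bin.

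**Figure D5:**
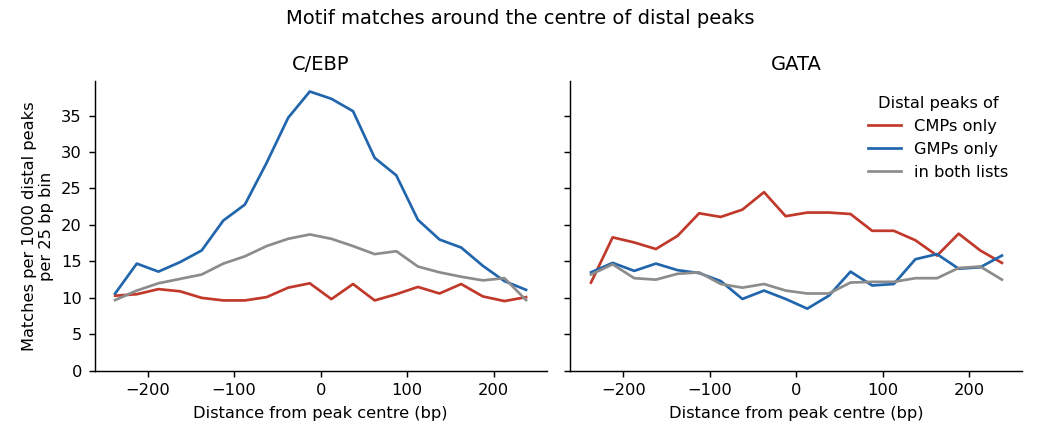
Matches to the C/EBP (left) and GATA (right) motifs per 1000 distal peaks in bins of 25 bp (vertical axis) by distance from the peak centre in bp (horizontal axis), for CMP-only, GMP-only and shared peaks. The C/EBP line of GMP-only peaks reaches 38.3 at the centre, and the GATA line of CMP-only peaks lies above the others near the centre, at 21.2 against 9.85 and 11.0.

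The classes divided further by their state in LT-HSCs. Of the 8630 distal GMP-only peaks that were not in LT-HSCs, 24.1% held a C/EBP match, compared with 10.9% of the 1932 that were, that is, regions open in LT-HSCs, absent from the CMP list and present again in GMPs. The GATA share of CMP-only peaks was much the same whether they were in LT-HSCs (15.4%) or not (14.8%). Their Pu.1 share was 5.27% where they were in LT-HSCs and 10.6% where they were not, and that of the Ets and Irf composite 7.07% and 14.5%. Among shared peaks the same motifs were likewise less frequent in those also found in LT-HSCs (Pu.1 7.66% against 12.9%, C/EBP 9.65% against 17.3%, composite 7.34% against 16.4%). C/EBP and Pu.1 matches stood together in 1.46% of GMP-only, 0.623% of CMP-only and 0.999% of shared peaks. None of the C/EBP, GATA, Pu.1, Runx or AP-1 motifs was found in 52.9% of GMP-only and 59.0% of CMP-only peaks.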

How the data were processed

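ATAC-seq libraries were grouped by their titles. The authors deposited 1 peak list per group, with positions alone on mm10, given as chromosome, start and end with no count, ratio or score. The submitters' processing notes name CASAVA 1.8.4, cutadapt 1.13, STAR 2.5.3 and bedtools. The peak caller, its threshold and how the 2 libraries were joined are not given in the sources used here, which leave out a supplementary note of the study on its bioinformatics.

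Start sites came from GENCODE release M21. Overlap, assignment and motif steps were tested on simulated data. The members and gene lists were chosen with earlier results of these data known. Named genes were up to 4 members per list with the largest net, members with a start-site peak in 1 list, the 10 genes with the largest net in each direction and 5 windows in each direction. Others named were chosen after their values were seen. Some genes that the rule names are not reported here. Python 3.11.15, numpy 2.4.6, pandas 2.3.3, pysam 0.24.0, samtools 1.23.1 and matplotlib 3.10.9 were used. Alternatives were other overlap rules, list lengths, a width limit, start-site distances, gene assignment and motif windows.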

Additional observations from a re-analysis of the deposited data

How the results depend on the processing

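No paired analysis was possible because each group has 1 list whose columns carry no replicate, and leaving out a library could not be done for the same reason. Of 130 values recomputed under the alternatives, 110 stayed within their limits (within 1.5 times for a count, within the 95% Wilson interval for a share, which covers counting error only), 19 moved and 1 reversed. The causes were not tested. With peaks below the 25th percentile of width left out, GMP-only peaks numbered 7858 and distal ones 6733, the share found in LT-HSCs was 69.1% of CMP-only and 23.5% of GMP-only distal peaks, the GATA share of CMP-only peaks was 14.3% and the C/EBP share of GMP-only peaks 19.9%. GMP-only peaks then made up 39.3% of all peaks in 1 list (48.0% with all widths), 42.3% at cytokine receptors (the reversal, from 68.3%), 41.2% at fate factors, 57.1% at primary granule genes and 34.8% at genes of the sorting gates. With a reciprocal overlap of 50% the LT-HSC shares were 60.5% and 24.6%, and the C/EBP share was 8.45% of CMP-only and 20.3% of GMP-only peaks. With no peak of the other list allowed within 500 bp, 17.1% of GMP-only peaks were in LT-HSCs, and GMP-only peaks were 0% of the 8 peaks in 1 list at dendritic cell genes. Within 250 bp of the centre, C/EBP matches were in 18.9% of CMP-only and 35.0% of GMP-only peaks, and GATA matches in 31.0% and 22.3%. The C/EBP share was higher in GMP-only peaks and the GATA share in CMP-only peaks under all 7 alternatives tried for motifs.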
